A study of Mus musculus with 6 samples.

Results

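The 10 genes studied here belong to intestinal fat absorption and chylomicron assembly. They were measured in epithelial cells of the ileum from control and Ogt knockout mice. They encode the fatty acid-binding proteins Fabp1 and Fabp2, the fatty acid receptor Cd36, the triglyceride-forming enzymes Dgat1 and Dgat2, the apolipoproteins Apob, Apoa1, Apoa4 and Apoc3, and the lipid transfer protein Mttp. The genes were chosen by symbol for their known roles, with earlier results of these data known. Their rows were found through the Ensembl identifiers of the deposited table, which gave 10 of its 22274 genes. All 10 passed the filter on low counts, as did 14005 genes in all.

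RNA was sequenced from isolated intestinal epithelial cells of the ileum of chow-fed mice, with 3 control and 3 Ogt knockout libraries. Knockout mice carried floxed Ogt and Olfm4-CreER, a tamoxifen-activated recombinase driven by a gene of crypt stem cells. Control mice carried floxed Ogt. The control titles also begin with Olfm4, but the labels do not state whether these mice carried the driver. The labels describe tamoxifen on 3 consecutive days from an age of 2 months for the offspring of the cross, with collection on day 10, and do not state separately whether control animals were dosed. Effects of Ogt loss and of the recombinase or its allele therefore cannot be told apart. Ogt encodes O-GlcNAc transferase, which attaches N-acetylglucosamine to nuclear and cytoplasmic proteins. The labels do not tie the libraries to individual animals, so the p-values measure the spread between these libraries, which may be technical.

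Dietary triglyceride is split in the gut lumen, and enterocytes take up the fatty acids and monoacylglycerol, carry them on binding proteins and join them again to triglyceride in the endoplasmic reticulum. There the microsomal triglyceride transfer protein, encoded by Mttp, loads the lipid onto newly made apolipoprotein B, and the particle leaves in large COPII-coated vesicles as a chylomicron. Most dietary fat is absorbed upstream of the ileum, which takes up what remains and is better known for bile acid recovery.

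Library totals lay between 14389429 and 18076479 counts. Levels are given as CPM, the counts of a gene scaled to a fixed library total after TMM normalisation, with mean ± SD over n = 3 libraries. Ogt itself averaged 132 ± 7.21 CPM in the control group and 42.5 ± 6.26 CPM in the knockout group, so the targeted gene matched the labels. By edgeR's estimate 32.25% of the control level of Ogt RNA remained in the knockout group. Markers of other cells were also present in both groups, with summed CPM of 8 fibroblast markers at 341 to 484 and 451 to 524 and of 10 leukocyte markers at 296 to 449 and 221 to 426. Of these, 2 fibroblast markers and 1 leukocyte marker were higher in the knockout group. Tuft cell markers shifted most, with 6 of 7 lower, a median log2 fold change of -2.19 and summed CPM of 102 to 111 in control and 33.0 to 38.1 in knockout libraries. Knockout 1 was the lowest library for the leukocyte list and the highest for the Paneth cell list. In such bulk samples, fewer cells of a type and less RNA per cell cannot be told apart.

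Of the 10 fat absorption genes, Fabp1 and Fabp2 fell in the knockout group, and the other 8 were not called. None rose. Calls rest on edgeR's quasi-likelihood test with p-values adjusted by Benjamini-Hochberg over all 14005 genes and a threshold of 0.05. The share called was 20% of the 10 genes beside 18.7% of all genes tested, of which 9.33% were higher and 9.37% lower, so the number of calls was close to the background. At an unadjusted p under 0.05, 0 of the 10 genes were higher and 2 were lower. DESeq2 and limma voom both called Fabp1 and Fabp2 lower. DESeq2 also called 1 higher, Apoc3, and limma voom called 0 higher. Control and knockout libraries did not overlap for 2 of the 10 genes, beside 39.8% of all genes. The estimates lay below 0 for 7 genes and above 0 for 3, with a median log2 fold change of -0.16 beside -0.05 over all genes. Scaled by library size alone, Apob and Dgat2 moved above 0, to 0.02 and 0.04.

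**Figure D1:**
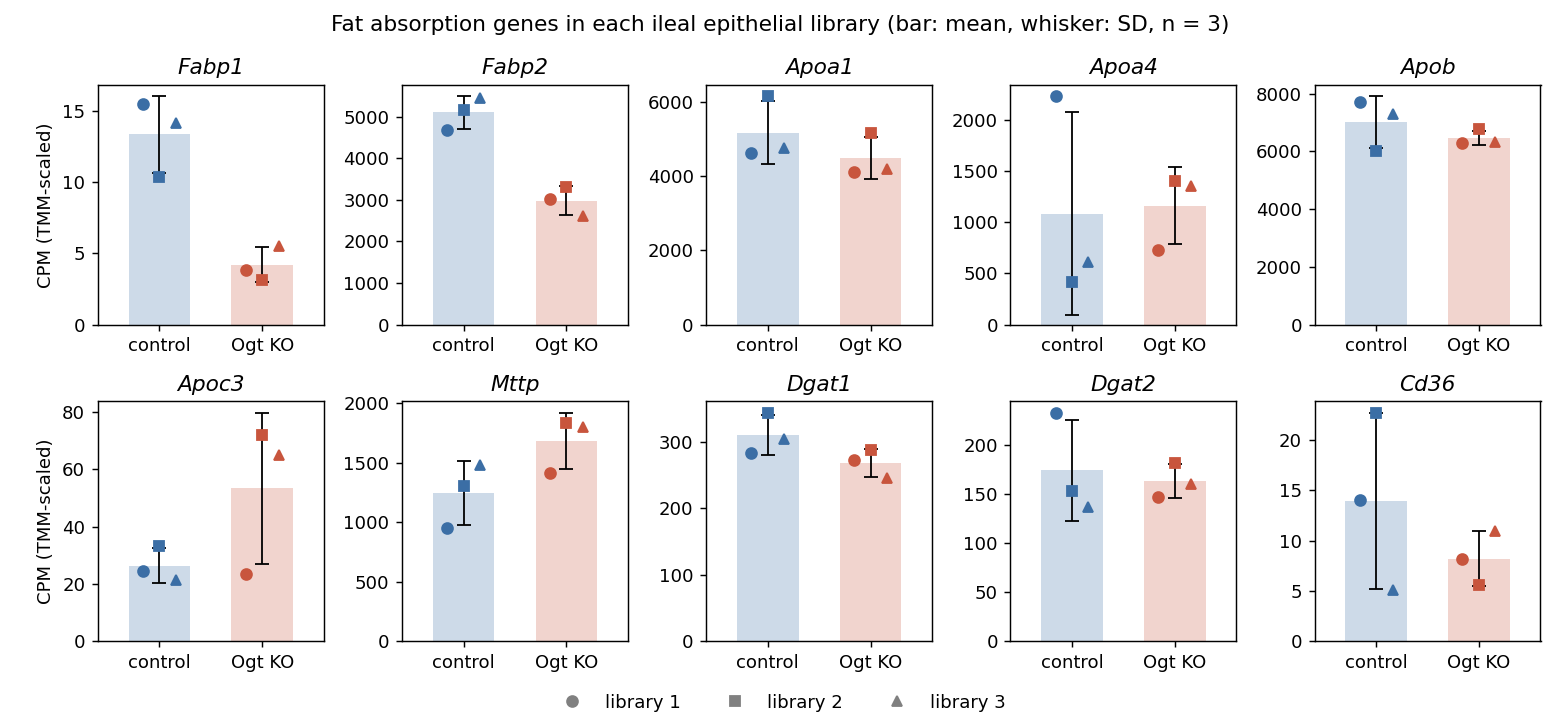
CPM of each of the 10 genes (vertical axes, each from 0) in the 3 control and 3 Ogt knockout libraries; points are libraries, bars the mean and whiskers the SD. The groups are apart for Fabp1 and Fabp2 and overlap for the other 8, with control 1 far above the other controls for Apoa4.

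Fabp2, the intestinal fatty acid-binding protein and a major cytosolic protein of enterocytes, stood at 4690, 5153 and 5459 CPM in control 1 to 3 and at 3012, 3313 and 2611 CPM in knockout 1 to 3. Every knockout library lay below every control library. The log2 fold change was -0.78 ± 0.16 (SE; 95% interval -1.14 to -0.41; adjusted p = 0.0144). Without control 3 or without knockout 3 the estimate was -0.69 in each case and the call was lost, at adjusted p of 0.0575 and 0.0693. Calls over all genes fell in these fits too, from 1307 higher and 1312 lower. They were 639 and 559 without control 3, and 549 and 460 without knockout 3.

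Fabp1, the binding protein that enterocytes share with hepatocytes, was far scarcer in these ileal cells. It had 15.5, 10.4 and 14.2 CPM in the control libraries and 3.87, 3.17 and 5.55 CPM in the knockout libraries, again with no overlap. Its log2 fold change was -1.67 ± 0.26 (SE; 95% interval -2.26 to -1.07; adjusted p = 0.00586), and the call held with each library left out in turn. Among all 22274 genes ordered by control CPM, Fabp2 was the 16th and Fabp1 the 7801st. In knockout libraries they were the 26th and the 10698th. By the authors' FPKM, which divides by transcript length, Fabp2 was the 10th and Fabp1 the 2941st in control libraries. In knockout libraries these FPKM places were the 13th and the 6433rd. Fabp1 also belongs to a list of 10 tested genes typical of the proximal small intestine, of which Slc40a1, which exports iron, and S100g, which binds calcium, fell as well, and 1, the cytochrome Cyp2b10, rose. Of 10 genes typical of the ileum, 3 were likewise lower and 0 higher (0 higher also at an unadjusted p under 0.05, with DESeq2 and with limma voom). The share lower was 30.0% in the proximal list, counting Fabp1, and in the ileal list, beside 9.37% of all genes. The summed CPM of these ileal genes was 12270 to 16238 in control and 8744 to 10704 in knockout libraries, with no overlap.

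Some markers of the villus were lower in the same libraries. Of 10 villus tip markers, 5 were lower and 0 higher (0 higher also at an unadjusted p under 0.05, with DESeq2 and with limma voom). Their summed CPM was 9409 to 14523 in control and 6495 to 8321 in knockout libraries, with no overlap. Of 28 enterocyte markers, 5 (17.9%) were lower (Alpi, Mep1a, Slc15a1, Slc3a1 and Tmigd1) and 0 higher, with 0 higher in the same 3 counts. In those counts 9 were lower at an unadjusted p under 0.05, 7 with DESeq2 and 5 with limma voom. The estimates lay below 0 for 22 markers and above 0 for 6, with a median of -0.50. The summed CPM of the 28 markers overlapped, at 34077 to 60661 in control and 35595 to 42889 in knockout libraries. Control 1 was the lowest library of all. The part of these markers in the fall of Fabp1 and Fabp2 was not tested.

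The upstream sequences of both fallen genes are shown beside that of Apoa4, because Fabp2 and Apoa4 were the only members found to hold the letters CAAAGTNCA, the type bound by HNF4 factors. The sequences are the 250 bases before the RefSeq start on the gene's strand, build GRCm38.p6, and capitals mark matches to the searched motifs. Fabp1 covers chr6:71199629-71199878, Fabp2 covers chr3:122894822-122895071 and Apoa4 covers chr9:46240594-46240843, each on the + strand.
Fabp1: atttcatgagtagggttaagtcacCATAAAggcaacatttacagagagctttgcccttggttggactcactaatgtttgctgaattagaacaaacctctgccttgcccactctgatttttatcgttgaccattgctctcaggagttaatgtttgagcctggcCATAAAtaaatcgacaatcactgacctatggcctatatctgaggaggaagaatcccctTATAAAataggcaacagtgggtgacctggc
Fabp2: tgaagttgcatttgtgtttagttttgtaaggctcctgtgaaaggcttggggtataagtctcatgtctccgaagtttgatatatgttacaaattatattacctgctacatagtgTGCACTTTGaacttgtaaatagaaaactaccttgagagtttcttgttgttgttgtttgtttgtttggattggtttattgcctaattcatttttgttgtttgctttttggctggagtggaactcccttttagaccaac
Apoa4: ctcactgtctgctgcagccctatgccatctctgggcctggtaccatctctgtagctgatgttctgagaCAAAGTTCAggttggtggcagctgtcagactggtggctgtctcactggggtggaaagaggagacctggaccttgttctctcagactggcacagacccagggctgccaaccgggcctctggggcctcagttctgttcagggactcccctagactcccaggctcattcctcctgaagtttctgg
The table held 7 of the 10 genes, and Apoc3, Dgat1 and Dgat2 were not matched. In Fabp2 the match lies on the opposite strand from -137 to -129 relative to the start, and in Apoa4 on the gene's own strand from -182 to -174. Of all 32851 promoters in the table, 1.19% hold CAAAGTNCA on either strand. Fabp1 holds TTTATG, the type bound by CDX factors, at 2 places on the opposite strand and TATAAA, the TATA box, from -30 to -25. TTTATG stands in 10.8% of all promoters and also in that of Cd36, and TATAAA in 12.4% and also in that of Apob. CAAAGTCCA (0.384% of all promoters), the direct repeat of nuclear receptor half-sites with 1 base between (0.0335%) and AGATAA, the GATA type (9.99%), were in none of the 7 windows. CAAAGTCCA is a special case of CAAAGTNCA. Matches are descriptions of letters, not of bound sites.

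Cd36, a membrane receptor for long-chain fatty acids that is also made by fat cells, macrophages and capillary endothelium, was scarce. Its level was 14.0, 22.7 and 5.12 CPM in control and 8.16, 5.56 and 10.95 CPM in knockout libraries. By the authors' FPKM the lowest library was knockout 2, at 2.12 beside 2.35 in control 3. By CPM the lowest and the highest library were both controls, so the knockout libraries lay inside the control range. This amounted to a log2 fold change of -0.76 ± 0.52 (SE; 95% interval -2.0 to 0.49; adjusted p = 0.353), an interval that allows a fall as well as a rise.

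The summed CPM of 8 adipocyte markers was 110, 184 and 43.3 in control and 66.6, 66.7 and 74.9 in knockout libraries. The libraries highest and lowest for this sum, control 2 and control 3, were also highest and lowest for Cd36 by CPM. By FPKM, knockout 2 was the lowest for Cd36. In control 3, Adipoq, Plin1, Lep, Cfd and Retn had 0 counts, so the sum there came from Fabp4, Pck1 and Plin4 alone. Adipoq, the adipocyte hormone adiponectin, stood at 6.64 and 10.9 CPM in control 1 and 2 and at 0.722 to 1.80 CPM in knockout libraries. None of the 6 adipocyte markers tested passed edgeR's test or limma voom's, and 1, Plin4, was lower at an unadjusted p under 0.05 and with DESeq2. Summed macrophage markers ranged over 284 to 337 CPM in control and 254 to 331 CPM in knockout libraries, and summed endothelial markers over 61.2 to 108 and 101 to 110 CPM. The part of these cells in the Cd36 level was not tested.

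**Figure D2:**
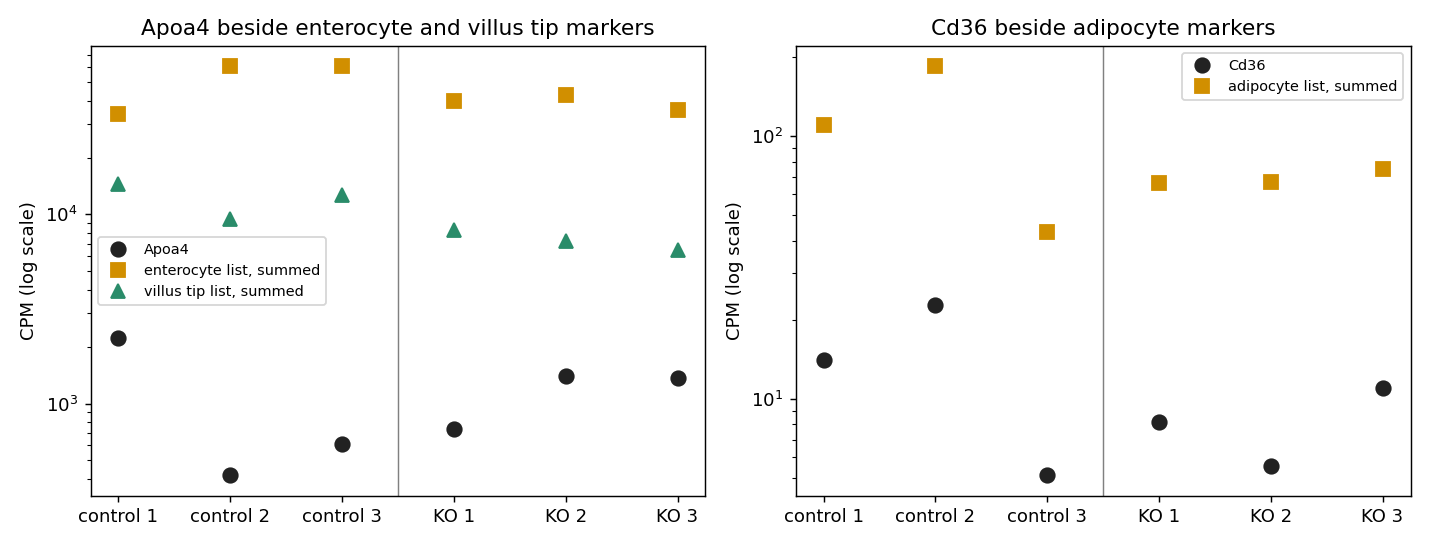
CPM (log scale) in each of the 6 libraries for Apoa4 beside the summed enterocyte and villus tip markers (left) and for Cd36 beside the summed adipocyte markers (right). Apoa4 is highest in control 1, at 2226 CPM, where the enterocyte sum is lowest, and Cd36 and the adipocyte sum are both highest in control 2 and lowest in control 3.

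Dgat1 and Dgat2 encode unrelated enzymes that add the last fatty acid to diacylglycerol. Dgat1 stood at 283, 343 and 304 CPM in control and 272, 287 and 246 CPM in knockout libraries, with a log2 fold change of -0.21 ± 0.12 (SE; 95% interval -0.48 to 0.07; adjusted p = 0.259). Only knockout 2 lay inside the control range, and the other knockout libraries lay below it. Dgat2 stood at 232, 153 and 137 CPM in control and 147, 182 and 160 CPM in knockout libraries, all of the latter inside the control range. Its log2 fold change was -0.09 ± 0.20 (SE; 95% interval -0.56 to 0.37; adjusted p = 0.779). It changed sign when control 1, the highest library, was left out, to 0.22.

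Apob, the structural protein of the chylomicron, was the 11th most abundant of all 22274 genes in control libraries by CPM. By FPKM, which divides by its long transcript, it was the 67th. Its level was 7722, 6009 and 7309 CPM in control and 6306, 6761 and 6343 CPM in knockout libraries, all of the latter inside the control range. The log2 fold change was -0.12 ± 0.16 (SE; 95% interval -0.49 to 0.26; adjusted p = 0.651). Apobec1, the enzyme that edits the Apob transcript in the intestine, averaged 69.9 ± 19.97 CPM in the controls against 46.2 ± 11.8 CPM in the knockouts, and was not called (adjusted p = 0.138). Apobec1 is given for its role, chosen with its values known.

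Apoa1, carried on chylomicrons and on high-density lipoprotein, had 4614, 6149 and 4763 CPM in control and 4109, 5150 and 4205 CPM in knockout libraries. Knockout 1 and 3 lay below all controls and knockout 2 among them. The log2 fold change was -0.21 ± 0.18 (SE; 95% interval -0.62 to 0.21; adjusted p = 0.461).

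Apoa4, an apolipoprotein that the intestine makes more of when fat is absorbed, varied most among the abundant members. Control 1 held 2226 CPM, against 418 and 608 CPM in control 2 and 3, a range of 5.33-fold between libraries of 1 group. Knockout libraries held 730, 1398 and 1356 CPM. Its estimated log2 fold change was 0.10 ± 0.66 (SE; 95% interval -1.52 to 1.72; adjusted p = 0.932), and without control 1 it was 1.23, at adjusted p = 0.0594. All knockout libraries lay above control 2 and 3 and below control 1. Control 1 was also the lowest library for the enterocyte markers, at 34077 summed CPM, and the highest for the villus tip markers, at 14523.

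Apoc3, which slows the clearance of triglyceride-rich particles, stood at 24.5, 33.3 and 21.4 CPM in control and at 23.4, 72.1 and 65.0 CPM in knockout libraries. Knockout 2 and 3 lay above all controls and knockout 1 among them. For Apoc3 the log2 fold change was 1.02 ± 0.42 (SE; 95% interval -0.01 to 2.04; adjusted p = 0.149). Without knockout 1 it was 1.38 and passed the test, at adjusted p = 0.00928, and DESeq2 called it with all libraries, at 1.04 and adjusted p = 0.0212.

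Mttp, without whose product apolipoprotein B is not lipidated, stood at 953, 1302 and 1478 CPM in control and at 1409, 1835 and 1798 CPM in knockout libraries. Knockout 2 and 3 lay above all controls and knockout 1 just below control 3. For Mttp the log2 fold change was 0.43 ± 0.19 (SE; 95% interval -0.01 to 0.88; adjusted p = 0.157). Knockout 1 was the lowest knockout library by CPM for Apoa4, Apoc3 and Mttp alike, and also for Apoa1, Apob and Dgat2.

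**Figure D3:**
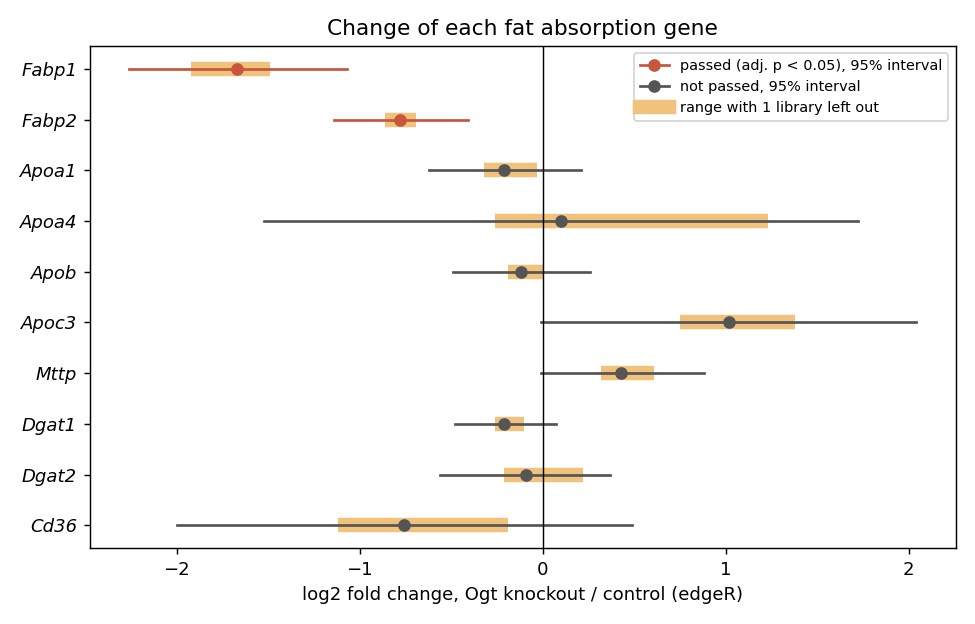
Log2 fold change of each of the 10 genes between knockout and control (horizontal axis) with its 95% interval; thick bands span the estimates with each library left out in turn. The intervals of Fabp1 and Fabp2 lie below 0, those of Apoc3 and Mttp reach -0.01, and that of Apoa4 is the widest.

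Levels of different genes were compared on the authors' FPKM scale, which divides by transcript length. In control libraries the order from high to low was Fabp2 (5037), Apoa1 (4771), Apob (867), Apoa4 (577), Mttp (299), Dgat1 (156), Dgat2 (73.9), Apoc3 (47.4), Fabp1 (23.1) and Cd36 (5.44), as mean FPKM. Library ranges overlapped between Fabp2 and Apoa1, Apob and Apoa4, Apoa4 and Mttp, and Dgat2 and Apoc3, so these neighbours were not separated. In knockout libraries Apoa1 (4549 FPKM) stood above Fabp2 (3229 FPKM) with no overlap, and Apoc3 (107 FPKM) stood above Dgat2 (75.9 FPKM) with overlapping ranges. Fabp1 (7.99 FPKM) and Cd36 (3.50 FPKM) kept the lowest places.

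The length implied by counts and FPKM was the same in all libraries, within 1%, for 8 of the 10 genes. For Apob it ranged from 6234 to 10610 bases and for Cd36 from 2048 to 2755 bases, so FPKM and CPM of these genes do not rank the libraries alike. The 10 genes together took 2.03, 1.85 and 1.89% of all counts in control and 1.61, 2.00 and 1.82% in knockout libraries. Means were 1.92 ± 0.0973% and 1.81 ± 0.194% (SD, n = 3), and the ranges of the groups overlapped.

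**Figure D4:**
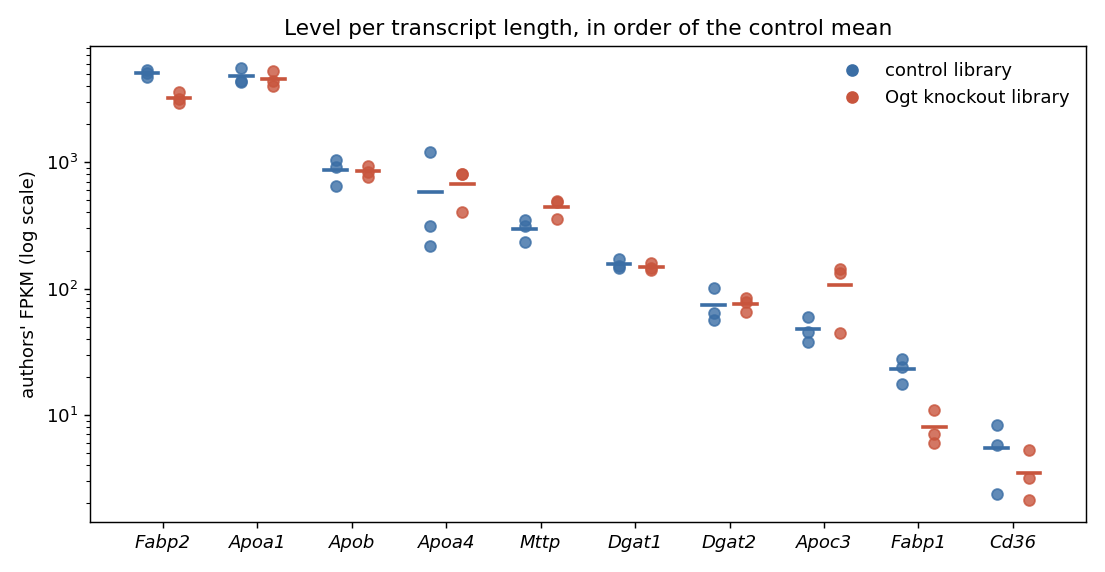
Authors' FPKM (log scale) of the 10 genes in each control and knockout library, ordered by the control mean. Fabp2 and Apoa1 stand highest, between 2938 and 5611 FPKM, and Cd36 lowest, with the knockout libraries below the controls for Fabp1 and Fabp2.

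Other genes of the pathway were read from 7 lists ordered by step. Among all 14005 tested genes 9.33% were higher and 9.37% lower. Near these shares lay the genes lower in triglyceride synthesis (12.5%), vesicle export (11.5%) and cholesterol absorption (9.09%). The same held for the genes higher among the other apolipoproteins (11.1%) and lipid droplets (10.5%). Further above lay 21.4% lower in uptake, 31.6% in lipid droplets and 29.0% in transcription factors, and 23.1% higher in vesicle export and 18.2% in cholesterol absorption. In fatty acid uptake and activation, 3 of 14 tested genes fell and 0 rose, with a median log2 fold change of -0.10. Slc27a4, a transport protein and acyl-CoA synthetase of enterocytes, went from 853 ± 62.1 to 598 ± 91.3 CPM (log2 fold change -0.51 ± 0.15, adjusted p = 0.0454). Acsl1, an acyl-CoA synthetase, went from 45.3 ± 3.60 to 30.6 ± 3.56 CPM (-0.57 ± 0.12, adjusted p = 0.0190), and the transporter Slc27a1 also fell (-0.80, adjusted p = 0.0288). The most abundant gene of the list, the synthetase Acsl5, stood at 1248 ± 358 and 1479 ± 170 CPM (adjusted p = 0.458). All 3 calls were lost without control 2, control 3, knockout 2 or knockout 3, and the list then had 1, 0, 0 and 0 genes lower. With a library left out, Slc27a4 kept its call only without control 1. It was also not called with library size alone (adjusted p = 0.0667), the replicate block (0.0525), or limma on log2(FPKM + 0.1) or log2(FPKM + 0.01) (0.0563 and 0.0571). At an unadjusted p under 0.05, 1 gene of the list was higher, and 0 with DESeq2 or limma voom.

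In triglyceride synthesis, 2 of 16 genes fell and 0 rose, with a median of -0.02. Lpin2, a phosphatidate phosphatase, went from 330 ± 78.6 to 122 ± 45.3 CPM (log2 fold change -1.43 ± 0.29, adjusted p = 0.0172), and the acyltransferase Agpat3 fell as well (-0.61, adjusted p = 0.0244). Mogat2, which starts the monoacylglycerol route used by enterocytes, stood at 281 ± 45.7 and 312 ± 38.8 CPM (adjusted p = 0.516). Both calls were lost without control 3, knockout 2 or knockout 3, and 1 was lost without control 2 or knockout 1. Without control 1, 1 gene of the list rose. At an unadjusted p under 0.05, 1 gene was higher, and 0 with DESeq2 or limma voom.

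Among the other apolipoproteins and the genes of Apob editing, 1 of 9 tested genes rose and 0 fell, with a median of 0.15. Apoc2, the cofactor that activates lipoprotein lipase and so opposes Apoc3, stood at 32.5, 27.8 and 24.8 CPM in control and at 105, 177 and 183 CPM in knockout libraries. Its groups were far apart, with a log2 fold change of 2.45 ± 0.23 (SE; adjusted p = 0.00168), and the call held with each library left out. Its estimated counts were not whole in 3 libraries, so part of its reads was shared with other genes. Apoe, the most abundant of the list, stood at 240 ± 93.4 and 252 ± 86.3 CPM (adjusted p = 0.903). At an unadjusted p under 0.05, 1 gene was lower, and 0 with DESeq2 or limma voom, and without control 2 the list had 2 genes higher.

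In chylomicron lipidation and vesicle export, 6 of 26 genes rose and 3 fell, with a median of 0.15. The small GTPase Sar1b, which starts the COPII coat and is needed for chylomicron secretion, stood at 178, 204 and 209 CPM in control and 352, 313 and 307 CPM in knockout libraries (log2 fold change 0.72 ± 0.11, adjusted p = 0.00623). The coat proteins Sec13 (98.8 to 185 CPM, 0.91 ± 0.10, adjusted p = 0.00261) and Sec24d (79.5 to 161 CPM, 1.02 ± 0.14, adjusted p = 0.00389) rose with it. Tmem41b, a membrane protein of the endoplasmic reticulum needed for lipoprotein export, also rose (0.58 ± 0.11, adjusted p = 0.00986). P4hb, the protein disulfide isomerase that is the second subunit of the transfer protein complex with Mttp, stood at 1120, 1017 and 1023 CPM in control and 1506, 1969 and 1664 CPM in knockout libraries (0.70 ± 0.14, adjusted p = 0.0152). P4hb also serves general protein folding, and all knockout libraries lay above all controls.

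The genes of this list that fell were Bet1, a vesicle fusion protein (-0.78 ± 0.17, adjusted p = 0.0171), Pla2g12b (-0.72, adjusted p = 0.0231) and Svip (-0.67, adjusted p = 0.0319). Preb, which loads GTP onto Sar1 proteins, was the sixth to rise (0.39, adjusted p = 0.0484). The number that rose was 4 to 6 with each library left out. The number that fell was 1 without control 2 or knockout 1 and 0 without knockout 2 or knockout 3. P4hb lost its call without control 3, knockout 2 or knockout 3 (adjusted p up to 0.0646), while Sar1b, Sec13, Sec24d and Tmem41b kept theirs with each library left out. Preb kept its call only without control 1 (adjusted p up to 0.146 otherwise), and was not called with no count filter (0.0548) or with limma voom (0.0504). Svip likewise kept its call only without control 1 (adjusted p up to 0.113 otherwise), and was not called in the FPKM fits.

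In cholesterol absorption and esterification, 2 of 11 genes rose and 1 fell, with a median of -0.18. Npc1l1, the sterol uptake protein of the brush border, went from 814 ± 75.0 to 465 ± 60.0 CPM (log2 fold change -0.81 ± 0.14, adjusted p = 0.00892). Soat2, which makes the cholesteryl esters packed into chylomicrons, rose from 68.6 ± 11.5 to 119 ± 16.9 CPM (0.79 ± 0.16, adjusted p = 0.0138), and so did the exporter Abca1 (0.75 ± 0.14, adjusted p = 0.0107). Soat2 lost its call without knockout 2 or knockout 3, leaving 1 gene higher, and without control 1 the list had 2 genes lower. Anxa2, the most abundant of the list, stood at 1690 and 1399 CPM (adjusted p = 0.345).

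In lipid droplets and lipolysis, 2 of 19 tested genes rose and 6 fell, with a median of -0.27. Carboxylesterases, a family with lipases of the endoplasmic reticulum, made up 4 of the 6: Ces1g (5.29 to 0.879 CPM, -2.58 ± 0.25, adjusted p = 0.00162), Ces1f (-0.73, adjusted p = 0.00327), Ces2c (-0.83, adjusted p = 0.00470) and Ces2e (-0.66, adjusted p = 0.0151). Ces2e was the most abundant of the list, at 1293 ± 151 and 819 ± 49.1 CPM. Hsd17b11 (-0.67, adjusted p = 0.00750), a droplet protein, and Lipa (-0.62, adjusted p = 0.0327), the lysosomal acid lipase, fell too. Fitm2, which helps droplets form, and the droplet coat protein Plin3 rose, by 0.91 (adjusted p = 0.00450) and 0.51 (adjusted p = 0.0121). Plin3 lost its call without knockout 2, leaving 1 gene higher. Ces2e lost its call without any 1 of the knockout libraries (adjusted p up to 0.0710). Lipa kept its call only without control 2 (adjusted p up to 0.137 otherwise) and was not called with library size alone or in the FPKM fits. Fitm1, the form typical of muscle, had 0 counts in all libraries.

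Of 31 transcription factors linked to these genes, 9 fell and 0 rose, with a median of -0.27 (0 higher also at an unadjusted p under 0.05, with DESeq2 and with limma voom). Hnf4g, an enterocyte nuclear receptor, went from 435 ± 30.8 to 250 ± 33.0 CPM (log2 fold change -0.80 ± 0.13, adjusted p = 0.00667). The related and more abundant Hnf4a stood at 1239 ± 24.2 and 1030 ± 123 CPM and was not called (-0.27 ± 0.13, adjusted p = 0.198). The coactivator Ppargc1a (-1.34, adjusted p = 0.00819), the sterol regulator Srebf2 (-0.58, adjusted p = 0.0134), Gata6 (-0.66, adjusted p = 0.0143) and Cdx2 (-0.53, adjusted p = 0.0148) fell. Creb3l3, which regulates apolipoprotein genes, also fell (-1.06, adjusted p = 0.0158), as did Klf4 and Klf5. The number that fell was 3 without control 3, knockout 2 or knockout 3, and up to 11 otherwise. Without any 1 of those 3 libraries Srebf2, Gata6, Cdx2, Creb3l3, Klf4 and Klf5 lost their calls, with estimates still below 0. Calls over all genes fell in the same fits, from 1307 higher and 1312 lower to 549 to 639 higher and 460 to 559 lower. Hnf4g and Ppargc1a kept their calls with each library left out.

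**Figure D5:**
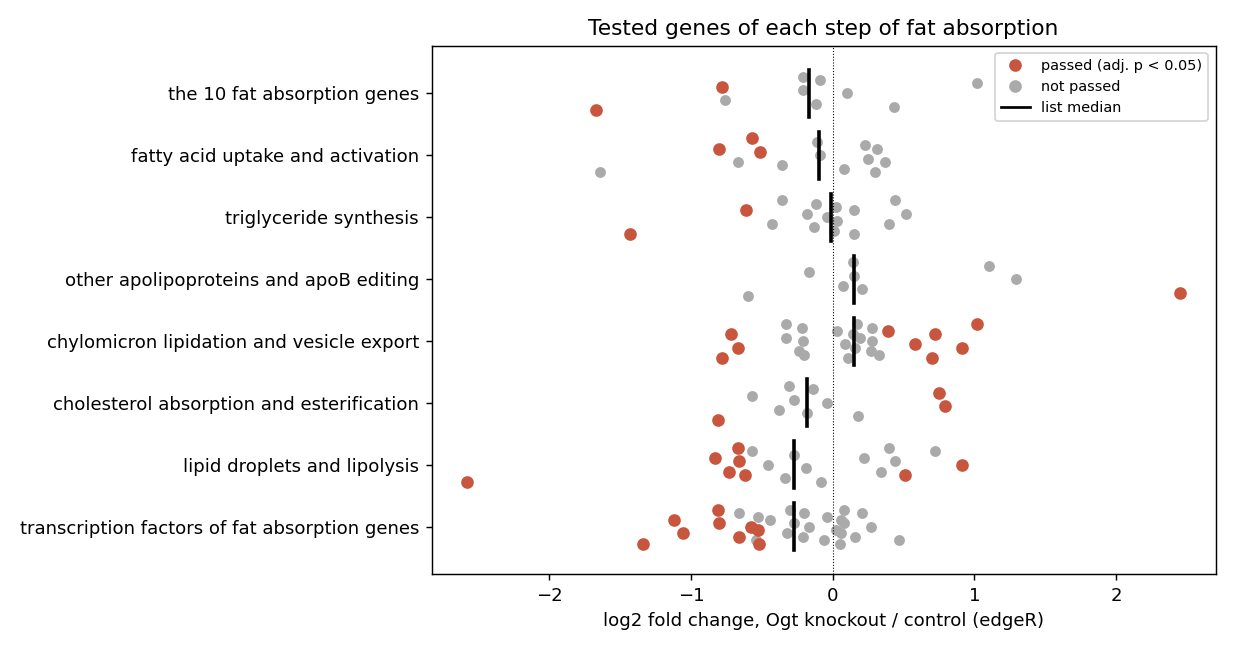
Log2 fold change between knockout and control of the tested genes in the 10-gene set and in 7 pathway lists (points, coloured where the adjusted p was under 0.05), with each list's median as a bar. The medians run from -0.27 for lipid droplets and transcription factors to 0.15 for vesicle export and the other apolipoproteins.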

How the data were processed

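RNA was isolated with Trizol and prepared with a NEBNext Ultra RNA kit, per the labels' protocols. As named, the kit keeps no strand, so a gene and an overlapping antisense gene cannot be told apart. GRCm39 and mm39 are the builds in the submitters' processing notes. Aligner, counter and annotation: not given in the sources used here. For each library the deposited table holds the authors' estimated counts (expected counts) per gene, of which 7.68% to 8.09% were not whole within 0.001, and FPKM values scaled for transcript length and library total. Genes were named by Ensembl ID from GENCODE M21 (22219 of 22274), with 43 names from the deposited table and 12 IDs unnamed.

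Estimated counts were rounded. Genes were filtered with filterByExpr (minimum count 10, minimum total 15), scaled with TMM factors and tested with edgeR 4.0.16 (quasi-likelihood, robust; R 4.3.3). At these depths 3 counts correspond to 0.159 to 0.207 CPM. No replicate pair agreed within sampling noise (mean chi-square per gene at least 19.5). The test was tried on simulated data for this comparison (14005 genes). It called 57 of 100 genes simulated with a 2-fold change and 86 of 100 with a 4-fold change, plus 13 false calls.

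The members and lists were chosen with earlier results of these data known, so their counts are descriptions without set tests. Named pathway genes are those called, or the 6 of smallest adjusted p where more than 6 were called, and the most abundant. Pla2g12b, Svip, Preb, Lipa, Creb3l3, Klf4, Klf5, Apobec1 and the marker genes were named with their values seen. Vamp7 was not matched. A gene that the naming rule gives is not reported here. Of the lists of other cells only those beside a member's result are described, and most genes their rule gives are not described. The groups share replicate numbers without a stated pairing.

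Motifs were searched on both strands of the 250 bases before the RefSeq start (GRCm38.p6). The 50 bases after it, part of the planned search, were not searched, and no coordinates of the deposited table's build were used. Alternatives were other scalings (DESeq2 size factors, library size, upper quartile, TMM without members and enterocyte genes), count filters, DESeq2 1.42.0, limma voom (limma 3.58.1), limma on log2(FPKM + 0.1) or log2(FPKM + 0.01), removal of the 20 most abundant genes, the replicate block and each library left out in turn. Figures were drawn with matplotlib.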

Additional observations from a re-analysis of the deposited data

How the results depend on the processing

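The direction of Fabp1, Fabp2, Apoa1, Apoc3, Mttp, Dgat1 and Cd36 was kept under every alternative in which they were tested, and Fabp1 kept its call in all 19. Fabp2 ranged from -0.86 to -0.69 with a library left out and Apoc3 from 0.75 to 1.38. Apoa4 ranged from -0.26 to 1.23, Apob from -0.19 to 0.00 and Dgat2 from -0.21 to 0.22, so their signs depended on single libraries. With a library left out, 1 to 2 members were lower and 0 to 1 higher, and over all genes 549 to 1932 were higher and 460 to 1372 lower. The lists then had 0 to 4 (uptake), 0 to 2 (triglyceride synthesis), 0 to 3 (vesicle export), 1 to 2 (cholesterol) and 3 to 11 (transcription factors) genes lower. They had 0 to 1 (triglyceride synthesis), 1 to 2 (other apolipoproteins), 4 to 6 (vesicle export), 1 to 2 (cholesterol) and 1 to 3 (lipid droplets) genes higher.

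Library size alone moved the median of all genes from -0.05 to 0.09 and the FPKM fits moved it to 0.12, 0.12 and 0.14. With library size alone, 2045 genes were higher and 859 lower, Apob was at 0.02 and Dgat2 at 0.04, uptake had 1 higher, triglyceride synthesis 1 lower and lipid droplets 4 higher. With limma on FPKM, 712 genes were lower (pseudocount 0.1), 709 (0.01) and 593 (at least 5 FPKM), beside 1883, 1877 and 1732 higher. Dgat2 was at 0.08 in each, vesicle export had 10 higher, cholesterol 2 lower and uptake 1 higher. Triglyceride synthesis had 1 lower in each and uptake 1 lower, or 2 at 5 FPKM, where lipid droplets had 4 higher and cholesterol 1 higher. DESeq2 called 1 member higher, Apoc3, at 1.04. Without the 20 most abundant genes Fabp2, Apoa1 and Apob were not tested and 1 member was lower. The members' share of the total differed by -0.112 percentage points in counts and by -0.314 in FPKM.

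Correlations of same-numbered control and knockout libraries were 0.31, 0.29 and 0.07, and those of the other pairs ran from -0.31 to 0.08. The pairs numbered 1 and 2 thus lay above all others, and these values do not settle whether libraries are paired. The main fit used no pairing because the labels state none. With the replicate block, 1728 genes were higher and 1674 lower, 0 members higher and 2 lower, triglyceride synthesis had 3 lower, cholesterol 2 lower and the other apolipoproteins 1 lower.

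With 3 libraries a group, 57 of 100 simulated 2-fold changes were called. The simulation changed 100 genes by 2-fold and 100 by 4-fold, while 2619 genes were called in the data. Adjusted p-values depend on how many genes change, so this rate need not hold for the real comparison.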

Other observations

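Apoa1, Apoc3, Apoa4 and Apoa5 lie side by side on chromosome 9 in RefSeq's gene order, between Sik3 and Zpr1. None of the 3 tested apolipoprotein genes of the cluster passed edgeR's test with all libraries, though Apoc3 passed with DESeq2 or without knockout 1, and Apoa5, at 0.159 and 0.517 CPM in control and knockout libraries, was below the count filter. Zpr1, a zinc finger protein next to Apoa5, rose from 18.097 to 36.5 CPM (log2 fold change 1.01, edgeR adjusted p = 0.00470), and Sik3, a kinase on the other side, rose by 0.45 (adjusted p = 0.0499). These neighbours were looked at for their position and named with their values seen.

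Among 5032 well expressed genes (mean log2 CPM not under 5), those whose log2 CPM over the 6 libraries was most like the mean standardised profile of the 10 members were Ndufa12 (Pearson r 0.975), Oxa1l (0.967), Mob3a (0.951), Nts (0.949) and Ap2a1 (0.939). None of the 5 passed the test, with adjusted p from 0.176 to 0.518. The members' mean profile, in SD units, was 0.42, 0.28 and -0.02 in control and -0.61, 0.13 and -0.19 in knockout libraries, so its low point was knockout 1. Between members, r ran from -0.71 (Fabp1 and Mttp) to 0.89 (Apoa1 and Dgat1), so this mean joins genes with unlike profiles. The 5 genes are the highest of 5032 over only 6 libraries, so high r values come with the selection. All 6 points share library scaling, and the correlations are descriptions.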
